A study of Homo sapiens with 6 samples.

Results

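The 9 genes described encode receptor protein tyrosine phosphatases (receptor PTPs): PTPRC, PTPRF, PTPRS, PTPRK, PTPRM, PTPRJ, PTPRA, PTPRE and PTPRG. They were chosen by symbol from the 22354 loci of a table of RNA-seq counts, and PTPRC, a gene of leukocytes, was selected on its lower level in the libraries labelled BMAL1 knockout, so the differences between the groups are given for these 9 genes as descriptions. The libraries came from HTori-3.1, an established cell line derived from normal human thyroid, and the comparison asks which transcripts differ once BMAL1, a transcription factor of the circadian clock, has been targeted. The control group has 3 libraries from cells labelled wild type. The other group has 3 libraries from cells labelled BMAL1 knockout, which received Cas9 and a guide RNA against BMAL1 by lentivirus, were selected with puromycin and were grown from single clones, which the protocol says were collected for a check of the knockout by western blot. How many clones the 3 libraries stand for is not given in the sources used here, so a difference between clones and a difference due to the targeted gene cannot be told apart. Cells of both groups were exposed to 2 μM etoposide, a topoisomerase inhibitor that breaks DNA and induces senescence, for 12 h by the treatment label and 24 h by the protocol. Total counts were 26893063, 27029060 and 28513703 in control replicates 1, 2 and 3, and 43148059, 29860233 and 43563391 in the knockout replicates.

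Receptor PTPs span the cell membrane and remove phosphate from tyrosine residues, which opposes the tyrosine kinases. Their extracellular parts resemble adhesion molecules or bind ligands, and their intracellular parts carry the phosphatase domains. PTPRC, known as CD45, is carried by nucleated blood cells, where it keeps SRC family kinases ready for antigen receptor signalling and acts on JAK kinases. PTPRJ is known in the thyroid as a phosphatase of follicular cells that restrains growth.

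BMAL1 itself was read first, since it is the targeted gene. It was counted 304, 326 and 409 times in the control libraries and 764, 603 and 860 times in the libraries labelled BMAL1 knockout. Scaled to library size as CPM and normalized by the trimmed mean of M-values (TMM), these were 11.3, 12.2 and 14.6 CPM against 17.9, 19.8 and 19.4 CPM. All 3 knockout libraries lay above all 3 control libraries, so the transcript was not lower under the knockout label. Counts per gene show neither the edited site nor the protein, so they do not settle whether the gene was disrupted. The log2 fold change of BMAL1 was 0.58 (standard error 0.11), and its edgeR quasi-likelihood p, adjusted after Benjamini-Hochberg over all loci tested, was 0.0238. Its adjusted p was 0.105 without control replicate 1, 0.129 without control replicate 2, 0.0815 without knockout replicate 2 and 0.0599 without knockout replicate 3, within a range of 0.000866 to 0.129 over 16 alternatives. The direction of each difference is given as the labels have it.

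PTPRC (ENSG00000081237.21) lies on the forward strand of chromosome 1 of hg38, from 198638457 to 198757476, and its exons cover 15436 bases. It was counted 172, 167 and 183 times in control replicates 1, 2 and 3 and 107, 60 and 115 times in the libraries labelled BMAL1 knockout. After normalization these counts were 6.41, 6.24 and 6.53 CPM in control and 2.51, 1.97 and 2.60 CPM in knockout. Every knockout library was below every control library, and the relative spread (coefficient of variation) was 2.27% in control and 14.5% in knockout, where replicate 2 was lowest. The mean was 6.40 ± 0.145 CPM (SD, n = 3) in control and 2.36 ± 0.341 CPM (SD, n = 3) in knockout, which is 36.8% of the control mean. The control mean was 2.72 times the knockout mean. The log2 fold change was -1.42 with a standard error of 0.15. In RNA from whole cultures, fewer cells with the transcript and less of it per cell cannot be told apart.

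A window around the start of PTPRC listed by RefSeq was read at chr1:198638790-198639089, on the forward strand of GRCh38.p14. It holds 250 bases before and 50 bases after that start. The whole window lies inside the gene limits given above, which begin at 198638457, and sequence before that position was not read. It is shown because the gene carries the clearest difference of the 9. The capitals mark AGGAAGT, read on either strand, a motif of the kind bound by ETS factors that was chosen after the sequence had been seen.
PTPRC: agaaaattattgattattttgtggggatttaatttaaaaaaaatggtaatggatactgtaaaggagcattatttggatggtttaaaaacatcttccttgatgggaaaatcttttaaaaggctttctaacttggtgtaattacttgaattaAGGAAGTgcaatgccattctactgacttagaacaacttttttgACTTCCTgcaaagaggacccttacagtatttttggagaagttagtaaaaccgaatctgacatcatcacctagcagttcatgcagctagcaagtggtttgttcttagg
The motif occurred 2 times in this window and was in 2 of the 13 windows of the genes described. Of the 35116 promoter windows of the RefSeq table, 8.24% hold it and 0.476% hold it 2 or more times. Since the motif was picked from this sequence, these shares are no test of the window. GC made up 33.7% of the PTPRC window, and 3.39% of all windows had as little GC or less. The window had 1 CpG, against a median of 14.

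The E-box CACGTG, the sequence to which the BMAL1 and CLOCK pair binds, reads the same on both strands and was searched in the 13 windows of the 8 genes that had an entry. PTPRJ had none. The motif was found in 1 of these 13 windows, that of PTPRS, and in 7.26% of all windows. The PTPRS window, at chr19:5340763-5341062 on the reverse strand of GRCh38.p14, is shown for that reason, with the E-boxes in capitals.
PTPRS: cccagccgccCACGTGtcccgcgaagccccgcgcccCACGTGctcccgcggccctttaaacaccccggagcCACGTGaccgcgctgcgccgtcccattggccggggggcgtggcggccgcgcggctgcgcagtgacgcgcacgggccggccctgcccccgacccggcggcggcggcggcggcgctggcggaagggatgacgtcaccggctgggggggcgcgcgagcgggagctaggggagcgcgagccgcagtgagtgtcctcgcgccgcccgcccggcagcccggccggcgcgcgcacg
It carried 3 E-boxes, a number reached or passed by 0.0940% of all windows. These matches are descriptions of the letters and show no binding.

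The LAR type receptors PTPRF and PTPRS bind matrix and synaptic adhesion partners and act at cell contacts. PTPRF (ENSG00000142949.17, hg38 chromosome 1, 43525187 to 43623666) measured 286, 291 and 267 CPM in control and 184, 217 and 233 CPM in the libraries labelled BMAL1 knockout. The knockout libraries were all below the control libraries, and knockout replicate 1 was the lowest. Its log2 fold change was -0.41 (standard error 0.092). PTPRS measured 71.8, 68.4 and 59.7 CPM in control and 63.4, 81.1 and 84.2 CPM in knockout. The groups overlapped, because knockout replicate 1 lay within the control range while the other knockout libraries lay above it. The log2 fold change of PTPRS was 0.19 (standard error 0.11), and it was 0.31 without knockout replicate 1, 0.12 without control replicate 3 and 0.11 without knockout replicate 3.

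PTPRK and PTPRM belong to the type that binds its own kind on neighbouring cells and meets cadherins and catenins at junctions. PTPRK (ENSG00000152894.15, hg38 chromosome 6, 127968785 to 128520616) measured 92.5, 97.3 and 106 CPM in control and 67.2, 69.2 and 74.8 CPM in knockout. The groups were well apart, with the highest knockout library below the lowest control library. The log2 fold change of PTPRK was -0.49 (standard error 0.082). PTPRM measured 98.3, 104 and 107 CPM in control and 78.9, 91.8 and 93.6 CPM in knockout. The groups did not overlap, but the gap was small beside the spread of the knockout libraries. The log2 fold change of PTPRM was -0.23 (standard error 0.085), and it was -0.16 without knockout replicate 1.

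PTPRJ, the follicular cell phosphatase with fibronectin type repeats, measured 63.8, 56.8 and 61.0 CPM in control and 55.2, 68.8 and 66.4 CPM in knockout. Its groups overlapped, and its log2 fold change of 0.07 (standard error 0.096) was smaller than that error. It was 0.16 without knockout replicate 1, 0.10 without control replicate 1, 0.02 without control replicate 2, 0.01 without knockout replicate 2 and 0.03 without knockout replicate 3. PTPRA and PTPRE have short extracellular parts, and PTPRA activates SRC family kinases. PTPRA measured 84.0 to 89.4 CPM in control and 86.7 to 94.5 CPM in knockout, with overlapping groups and a log2 difference of 0.05 (standard error 0.074), or 0.09 without knockout replicate 1, 0.03 without control replicate 3 and 0.02 without knockout replicate 2. PTPRE measured 22.7 to 23.1 CPM in control and 23.5 to 27.4 CPM in knockout. PTPRE was the 1 gene of the 9 whose knockout libraries all lay higher, its log2 fold change being 0.15 (standard error 0.093), or 0.10 without knockout replicate 3. PTPRG, which has a domain like carbonic anhydrase and binds contactins, measured 61.0 to 71.3 CPM in control and 48.6 to 60.8 CPM in knockout. Its groups did not overlap, yet the highest knockout library was close to the lowest control library, and its log2 fold change was -0.20 (standard error 0.10) with all libraries and -0.11 without knockout replicate 1 or -0.12 without control replicate 3.

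**Figure D1:**
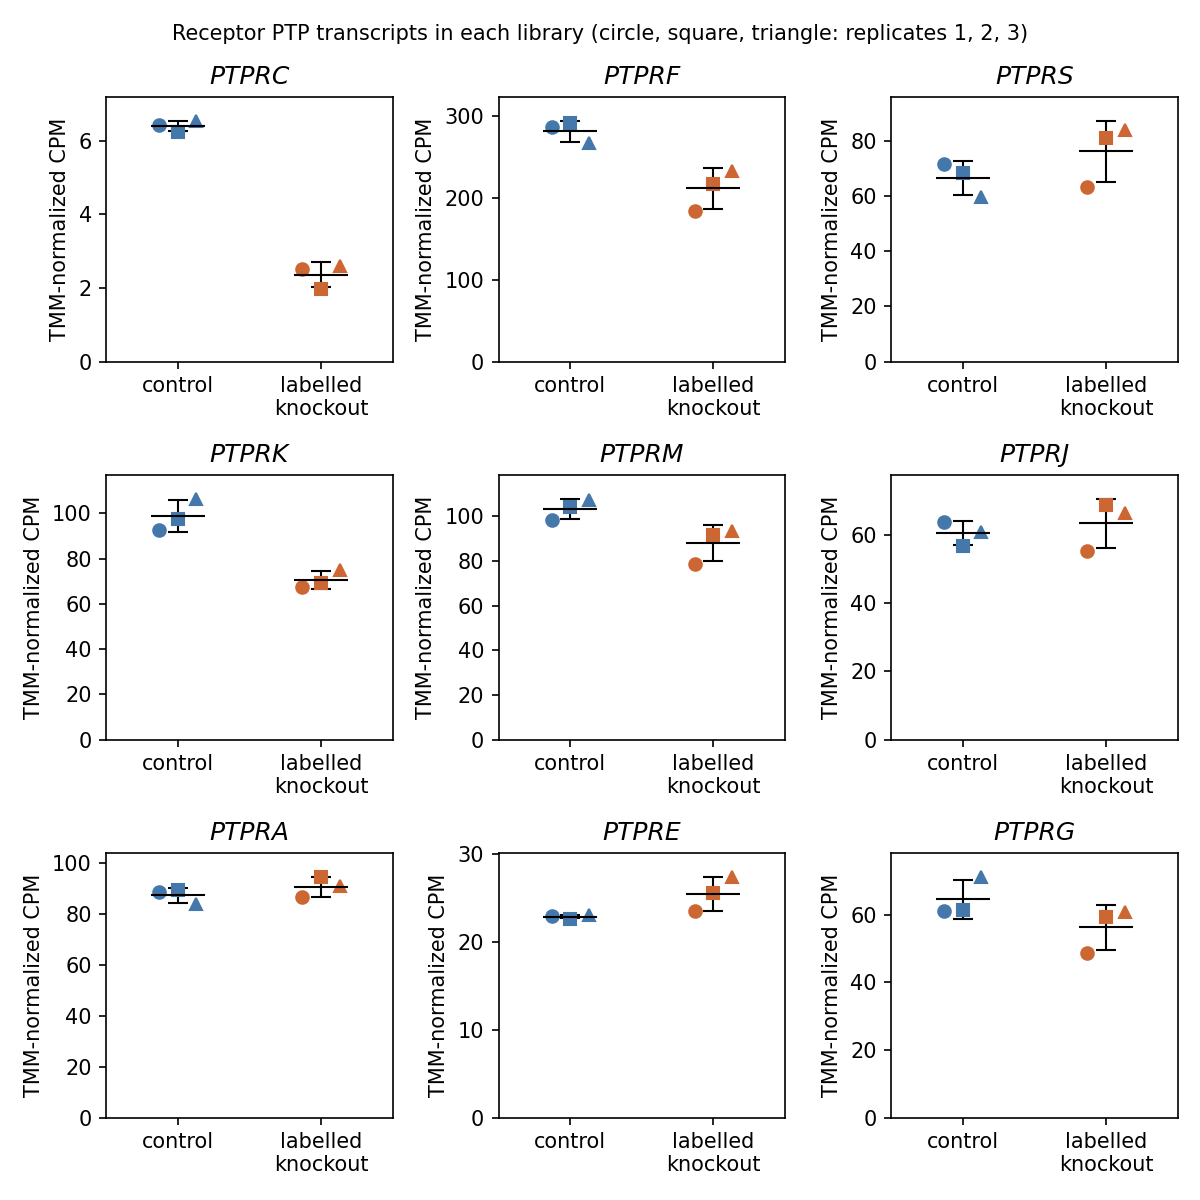
TMM-normalized CPM (y axis, from 0) of each of the 9 genes in the 3 control libraries (blue) and the 3 libraries labelled BMAL1 knockout (orange), with the mean and SD as black lines. PTPRC lies between 6.24 and 6.53 CPM in control and between 1.97 and 2.60 CPM in knockout, while the groups of PTPRS, PTPRJ and PTPRA overlap.

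All 9 genes passed the low-count filter. The groups did not overlap for 6 of them, with knockout lower for 5 and higher for 1, and over all 14860 loci tested they did not overlap for 23.3%. An adjusted p under 0.05 was reached by 3 of the 9, PTPRC, PTPRK and PTPRF, all lower, where over all loci tested 2.37% were called in either direction, 1.01% higher and 1.36% lower. Since the contrast chose the genes, these counts place them among all loci and are no test of them. The number called was 1 without control replicate 2, without control replicate 3 or without knockout replicate 2, and 2 without control replicate 1. With all libraries kept, it was 2 with scaling by library size only, 2 by limma-voom and 2 with the replicate number as a block. The median log2 fold change of the 9 genes was -0.20, and that of all loci tested was 0.01.

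Knockout replicate 1 was the lowest of the 3 knockout libraries for 8 of the 9 genes, PTPRC being the exception, and for 45% of all loci tested. This library also deviated most in base composition. For loci whose longest transcript has at least 55% GC, the median deviation of its log2 CPM from the mean of all libraries was -0.12, and for loci with at most 45% GC it was 0.12. Control replicate 3 deviated the same way, by -0.10 and 0.06. Transcript GC ranged from 35.2% in PTPRC to 61.1% in PTPRS. With each library's GC trend removed, the log2 fold change was -1.50 for PTPRC, -0.50 for PTPRK and -0.39 for PTPRF.

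Levels of different genes were compared as CPM per kilobase of exon. In control, PTPRF was highest at 26.3 ± 1.20 CPM per kilobase (SD, n = 3), followed by PTPRA at 22.3 ± 0.753 (SD, n = 3). PTPRK and PTPRM came next at 11.1 ± 0.795 and 10.4 ± 0.472 CPM per kilobase (SD, n = 3), and their libraries overlapped. PTPRJ at 6.22 ± 0.360 and PTPRS at 5.65 ± 0.528 CPM per kilobase (SD, n = 3) overlapped likewise. PTPRG reached 4.41 ± 0.400 and PTPRE 2.05 ± 0.0199 CPM per kilobase (SD, n = 3). PTPRC was the lowest of the 9 at 0.414 ± 0.00942 CPM per kilobase (SD, n = 3). By exon length, the order in the libraries labelled BMAL1 knockout differed in 2 places, with PTPRA at 23.2 ± 1.01 above PTPRF at 19.7 ± 2.33, and PTPRM at 8.90 ± 0.812 above PTPRK at 7.88 ± 0.439 CPM per kilobase (SD, n = 3). The libraries of PTPRA and PTPRF did not overlap there, and those of PTPRM and PTPRK did. Both differences depend on the length used. Scaled to the longest transcript, PTPRF led in both groups, at 27.4 ± 3.24 against 24.4 ± 1.06 for PTPRA in knockout, and PTPRM was above PTPRK in both groups, at 14.5 ± 1.32 against 11.7 ± 0.654 CPM per kilobase in knockout (SD, n = 3). PTPRC was lowest of the 9 by both lengths, in knockout at 0.153 ± 0.0221 CPM per kilobase of exon and 0.327 ± 0.0473 CPM per kilobase of the longest transcript (SD, n = 3).

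**Figure D2:**
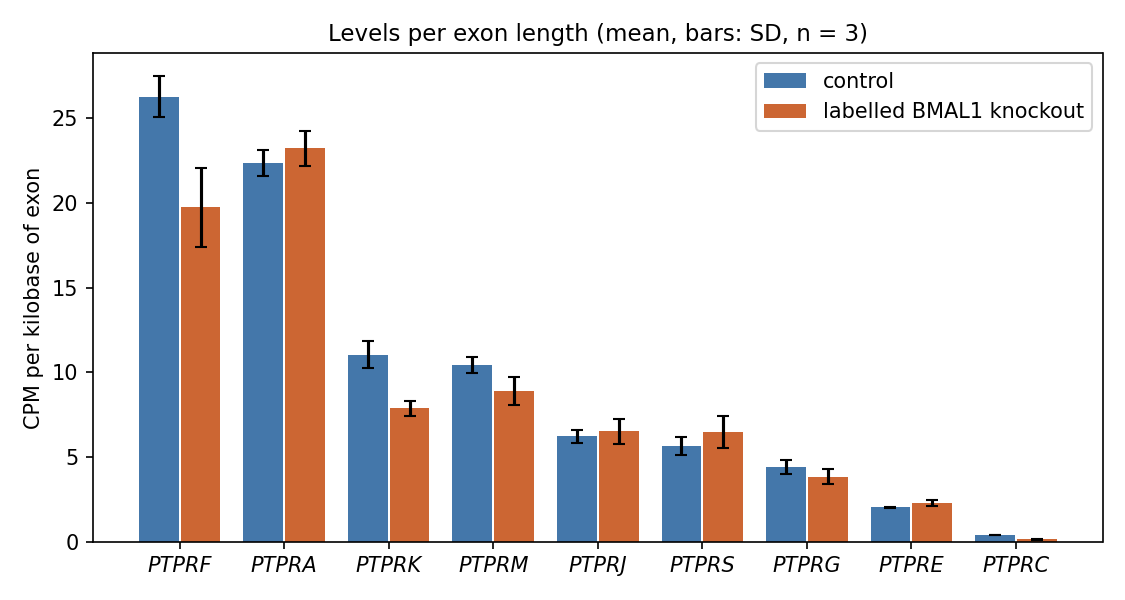
CPM per kilobase of exon (y axis, from 0) of the 9 genes in control (blue) and in the libraries labelled BMAL1 knockout (orange); bars give the mean and error bars the SD of 3 libraries. By this length PTPRF leads in control at 26.3 and PTPRA in knockout at 23.2, whereas by the longest transcript PTPRF leads in both; PTPRC is lowest in both.

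The 11 other receptor PTPs of the table were taken from a list. Of these, 7 passed the low-count filter, 3 of them higher and 4 lower, with a median log2 fold change of -0.04. PTPRQ, a phosphatase of inner ear hair cells that acts on inositol lipids, was the 1 called. It measured 0.857, 0.785 and 1.43 CPM in control and 2.32, 2.19 and 2.19 CPM in knockout. All knockout libraries were higher, at a level near the filter. Its log2 fold change was 1.12 (standard error 0.24), with a Benjamini-Hochberg adjusted edgeR p of 0.0360. That p was 0.138, 0.168, 0.0501, 0.0789 and 0.0689 without control replicate 1, control replicate 2, knockout replicate 1, knockout replicate 2 and knockout replicate 3, within a range of 0.0194 to 0.168 over 16 alternatives. With all libraries kept, it was 0.0523 by limma-voom, 0.0507 after thinning to equal totals and 0.0613 with the replicate number as a block. The groups of 2 of the 7 did not overlap, PTPRQ and PTPRO, beside 23.3% of all loci tested. PTPRO, named after its values were seen, was lower in all knockout libraries, at 7.17 ± 0.512 and 5.37 ± 0.714 CPM (SD, n = 3). Its log2 fold change was -0.40 (standard error 0.14), with an adjusted edgeR p of 0.161. The most abundant of this list, PTPRU, measured 18.3 ± 1.97 CPM in control and 20.8 ± 2.48 CPM in knockout (SD, n = 3). PTPRZ1 had 0 counts in every library, which allows up to 0.0151 CPM over the 6 libraries together at 3 counts. The 9 genes held 94.9% ± 0.271 of the summed CPM of all 20 receptor PTPs in control and 93.9% ± 0.387 in knockout (SD, n = 3). That sum was 835 ± 6.64 CPM in control and 729 ± 67.0 CPM in knockout (SD, n = 3).

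**Figure D3:**
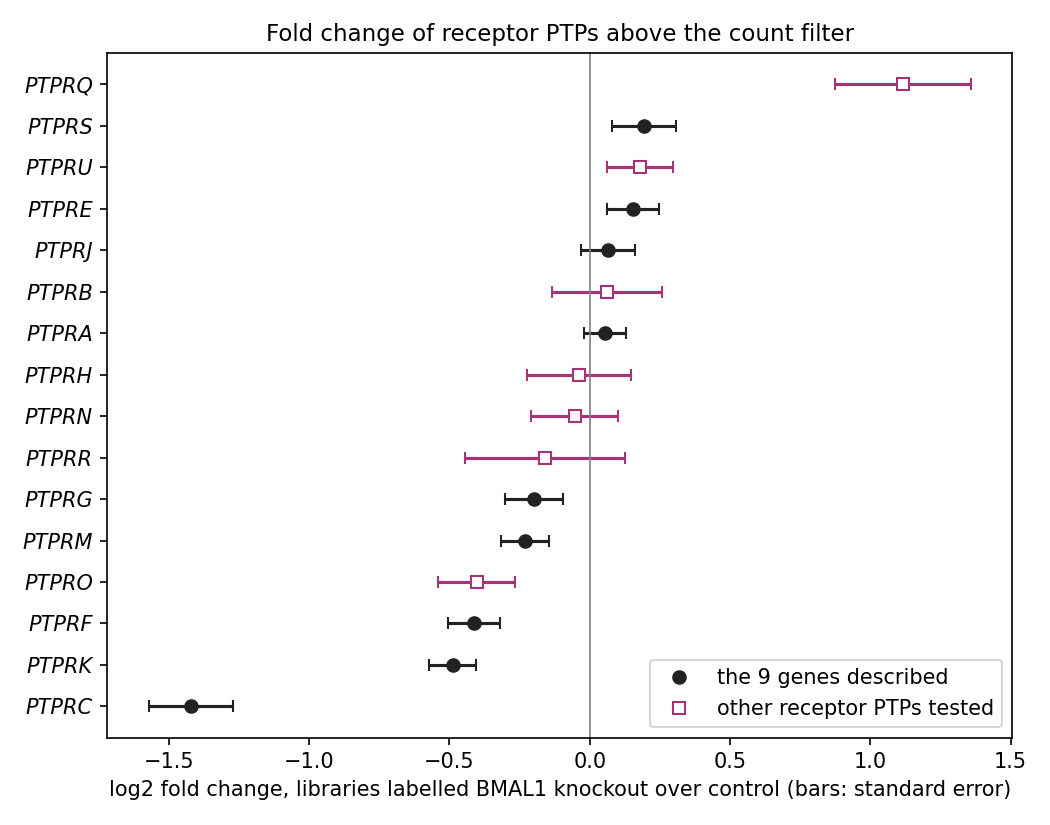
Log2 fold change (x axis; libraries labelled BMAL1 knockout over control, bars give the standard error) of the 16 receptor PTPs that passed the low-count filter, the 9 genes described as filled circles and the others as open squares. PTPRC lies at -1.42, PTPRQ at 1.12 and the others between -0.49 and 0.19.

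Among 17 nonreceptor classical PTPs, which work inside the cell, 14 were tested and 1 was called. PTPN13, a large phosphatase with PDZ domains, rose from 21.5 ± 0.528 to 28.5 ± 2.20 CPM (SD, n = 3), with all 3 knockout libraries higher. Its log2 fold change was 0.41 (standard error 0.093), with a Benjamini-Hochberg adjusted edgeR p of 0.0430. That p was 0.147, 0.185, 0.0981, 0.132 and 0.124 without control replicates 1, 2 and 3 and knockout replicates 2 and 3, within a range of 0.00744 to 0.185 over 16 alternatives. With all libraries kept, it was 0.0600 by limma-voom and 0.0955 with the replicate number as a block. PTPN11, known as SHP2, was the most abundant, at 381 ± 18.3 and 367 ± 5.10 CPM (SD, n = 3). The median log2 fold change of the list was -0.02. PTPN22, a phosphatase of lymphocytes named after its values were seen, was lower in all knockout libraries, at a log2 fold change of -1.26 with an adjusted edgeR p of 0.0988. That p was 0.0468 with the GC trend removed, the 1 value under 0.05 in 15 alternatives, which reached 0.315.

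The kinases on which PTPRC and PTPRA act were tested as well. Of the 12 genes of the SRC family and the CSK axis, 8 were tested, with a median log2 fold change of 0.01. YES1 led at 104 ± 11.8 CPM in control and 105 ± 0.535 CPM in knockout (SD, n = 3). LCK, the SRC family kinase of T cells, had 0 counts in each control library and 2 counts in each knockout library. All 4 JAK kinases were tested, with a median of 0.05, and JAK1 led at 133 ± 1.77 and 136 ± 0.644 CPM (SD, n = 3). Of the 6 regulators of PTPRC splicing, all were tested with a median of -0.05, and SFPQ led at 547 ± 23.9 and 530 ± 8.10 CPM (SD, n = 3). The intracellular partners of LAR type PTPs had 8 of 10 tested, a median of -0.04 and TRIO as the most abundant, at 428 ± 9.49 and 383 ± 43.1 CPM (SD, n = 3). Cadherins, catenins and receptor tyrosine kinases had 13 of 16 tested, a median of -0.02 and CTNNA1 as the most abundant, at 642 ± 11.6 and 588 ± 8.41 CPM (SD, n = 3). In these 5 lists edgeR called 0 of 39 genes tested and limma-voom called 0, beside 352 and 255 of all 14860 loci tested. An unadjusted edgeR p under 0.05 was reached by 6, and by 2506 of all loci tested. DESeq2 called 2, PPFIBP1 and ENAH, which are named because of that call, beside 697 of all loci tested. With the GC trend removed, 2 were called, beside 1090 of all loci tested.

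Of 21 extracellular ligands and partners, 13 were tested, 10 of them higher and 3 lower, with a median log2 fold change of 0.14. Over all loci tested, 47.7% were lower. An unadjusted edgeR p under 0.05 was reached by 7 of the 13, beside 2506 of 14860 over all loci tested. The groups of 8 did not overlap, beside 23.3% of all loci tested. With the GC trend removed, 3 of the list were called, beside 1090 of all loci tested. THBS1, a matrix protein that binds PTPRJ, was the 1 called by edgeR. It measured 269, 256 and 264 CPM in control and 184, 200 and 205 CPM in the libraries labelled BMAL1 knockout. All 3 knockout libraries were lower. THBS1 fell, its log2 fold change being -0.42 (standard error 0.073), at a Benjamini-Hochberg adjusted edgeR p of 0.0127. That p was 0.0695, 0.0671, 0.0536 and 0.0502 without control replicates 1, 2 and 3 and knockout replicate 2, within a range of 1.21e-05 to 0.0695 over 16 alternatives. MDK, a growth factor that binds heparin, was called by DESeq2 and is named for that. It was higher in all knockout libraries, at a log2 fold change of 0.62 (standard error 0.15). Its adjusted p was 0.0633 by edgeR, 0.00261 by DESeq2, 0.0119 with the GC trend removed and 0.0414 with the replicate block, and it reached 0.190 without knockout replicate 2, the highest of 16 alternatives. LGALS1, a galectin that binds the sugars of PTPRC, was the most abundant at 371 ± 1.11 and 404 ± 42.1 CPM (SD, n = 3).

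Since PTPRC marks leukocytes, 51 genes of 4 leukocyte lists were read beside it. Of these, 15 had 0 counts in all 6 libraries, 9 had 1 to 9 counts over the 6 libraries, and 15 passed the low-count filter. The 21 pan-leukocyte markers summed to 79.4, 75.9 and 75.6 CPM in control and 70.5, 73.4 and 77.4 CPM in knockout. RAC2 was the most abundant, at 28.5 ± 1.84 and 24.0 ± 0.566 CPM (SD, n = 3). CD48, CYTIP, IKZF1 and ARHGAP15 had 0 counts in every library, and PTPRCAP, whose protein sits beside CD45, had 0 or 1 count per library. The 10 tested had a median log2 fold change of -0.16. Not scaled to length, 5 of the 51 leukocyte genes had a mean CPM over the 6 libraries at or above the 4.38 of PTPRC. Besides RAC2 they were ITGB2 at 12.8, VAV1 at 10.8, DOCK2 at 9.42 and LCP1 at 7.55 CPM, named after their values were seen. An unadjusted p under 0.05 was reached by 4 of the 10, beside 2506 of 14860 over all loci tested. Of these, LAPTM5, CD37 and RAC2 were lower, with log2 fold changes of -1.25, -0.62 and -0.25, and LCP1 was higher at 0.36. WAS, below the filter, was 0.298 to 0.411 CPM in control and 0.131 to 0.181 CPM in knockout, so its groups did not overlap. NCKAP1L, also below the filter, had 0 counts in each control library and 4, 3 and 7 counts in the knockout libraries.

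Lineage markers were sparser. Of 12 T and NK cell markers, 11 were in the table and 2 were tested, with a median of 0.43 and summed levels of 0.852 to 1.16 CPM over the 6 libraries. CD4 was the most abundant, at 0.516 ± 0.168 and 0.385 ± 0.0878 CPM (SD, n = 3). The median lies between CD4, at a log2 fold change of -0.42, and CD8A, at 1.29 with an unadjusted p of 0.00902 and an adjusted p of 0.133. CD8A was higher in all knockout libraries. The log2 fold change of CD4 was -0.13 without control replicate 2 and -0.24 without knockout replicate 3. CD2, CD3D, CD3E, CD3G and KLRD1 had 0 counts, and CD247, with 10 counts in all, was counted in control libraries alone. ZAP70 had 5, 2 and 2 counts in control and 0, 0 and 3 counts in knockout. Of 11 myeloid markers, 2 were tested, with a median of 1.02 and sums of 1.08, 1.23 and 1.29 CPM in control and 1.43, 2.23 and 2.66 CPM in knockout. CD14 led at 0.413 ± 0.202 and 0.835 ± 0.399 CPM (SD, n = 3), and TYROBP, AIF1, FCGR3A and S100A8 had 0 counts. FCER1G was 0.214 to 0.261 CPM in control and 0 to 0.187 CPM in knockout, whereas CSF1R had 0 counts in each control library and 4, 5 and 9 counts in the knockout libraries. Of 8 B and plasma cell markers, CD22 was the 1 tested, and the list summed to 5.74, 4.15 and 4.07 CPM in control and 2.48, 3.28 and 2.03 CPM in knockout. MS4A1 had 0 counts.

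CD22, a lectin of B cells that binds sialic acid, measured 5.52, 3.93 and 3.86 CPM in control and 2.08, 2.78 and 1.51 CPM in the libraries labelled BMAL1 knockout. All 3 knockout libraries were lower, and the control libraries were uneven. CD22 fell, its log2 fold change being -1.10 (standard error 0.23), at a Benjamini-Hochberg adjusted edgeR p of 0.0316. That p was 0.118, 0.0809, 0.0957 and 0.0800 without control replicates 1, 2 and 3 and knockout replicate 3, within a range of 0.00234 to 0.118 over 16 alternatives. The leukocyte lists thus held genes at 0, genes counted and lower and genes counted and higher in the libraries that counted PTPRC 60 to 183 times. The part of RNA from leukocytes in the level of PTPRC was not tested.

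**Figure D4:**
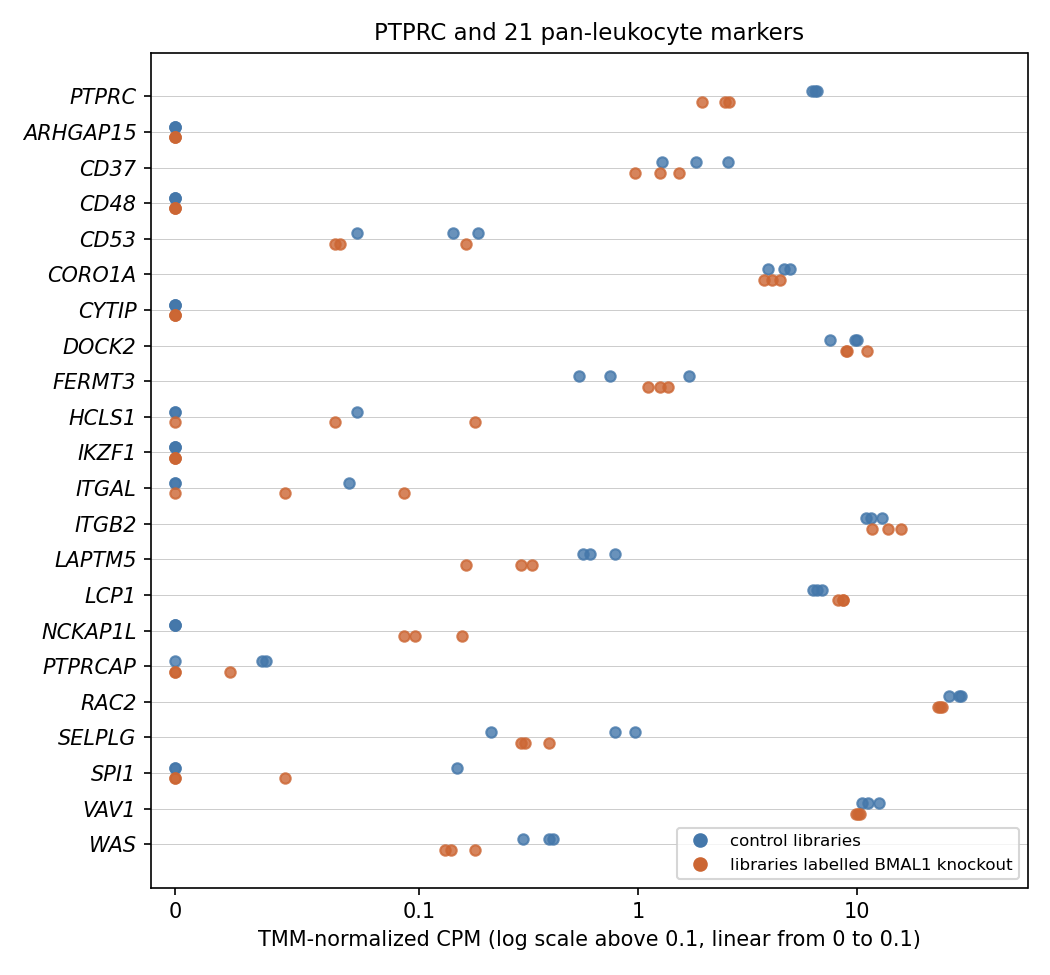
TMM-normalized CPM (x axis, log scale above 0.1 and linear from 0 to 0.1) of PTPRC and of the 21 pan-leukocyte markers in each control library (blue) and each library labelled BMAL1 knockout (orange). CD48, CYTIP, IKZF1 and ARHGAP15 sit at 0 in all 6 libraries, PTPRC at 1.97 to 6.53 CPM and RAC2 highest.

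The labelled cell type was read from its own markers. Of 15 thyroid follicular markers, 6 were tested with a median log2 fold change of 0.11 and PAX8 as the most abundant, at 133 ± 15.4 CPM in control and 110 ± 19.1 CPM in knockout (SD, n = 3). FOXE1 measured 47.5, 47.7 and 48.8 CPM in control and 36.2, 42.1 and 41.6 CPM in knockout. The thyroid list summed to 184, 185 and 215 CPM in control and 144, 161 and 186 CPM in knockout. NKX2-1, DUOXA2 and IYD had 0 counts in every library, and TG and TSHR, which encode thyroglobulin and the thyrotropin receptor, had between 0 and 13 counts per library, so these defining genes were near absent. The fibroblast list had 2 of 8 tested, a median of 0.26 and COL1A1 as the most abundant, at 860 ± 77.9 and 859 ± 141 CPM (SD, n = 3), with DCN and LUM at 0 counts. The endothelial list had 3 of 6 tested, a median of -0.24 and VWF as the most abundant, at 1.20 ± 0.153 and 0.989 ± 0.272 CPM (SD, n = 3), with EMCN at 0 counts. That median is the value of VWF. It was -0.09 for VWF without knockout replicate 2, -0.13 without control replicate 1 and -0.46 without knockout replicate 3. In the pan-leukocyte, T and NK, myeloid, fibroblast, endothelial and thyroid lists together, edgeR, DESeq2 and limma-voom each called 0 of 25 genes tested. Over all 14860 loci tested they called 352, 697 and 255. In these lists 8 genes had an unadjusted edgeR p under 0.05, beside the same 2506 of 14860.

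Of 9 epithelial markers, 8 were tested, with a median log2 fold change of 0.14, and 1 was called. KRT18, a keratin of simple epithelia, fell from 852 ± 9.45 to 602 ± 44.2 CPM (SD, n = 3), with all 3 knockout libraries lower. Its log2 fold change was -0.50 (standard error 0.075), with a Benjamini-Hochberg adjusted edgeR p of 0.00587. That p was 0.0562 without control replicate 2, within a range of 2.49e-07 to 0.0562 over 16 alternatives. KRT8, its partner and the most abundant of the list, measured 1408 ± 41.4 and 1157 ± 8.11 CPM (SD, n = 3) and was lower in all knockout libraries, at a log2 fold change of -0.28. Its adjusted p was 0.0517 by edgeR, 0.00300 by DESeq2, 0.0241 with the GC trend removed, 0.0498 after thinning and 0.00757 without knockout replicate 1, and it reached 0.255 without control replicate 2, the highest of 16 alternatives. EPCAM, an adhesion molecule of epithelia, had 0 to 17 counts per library.

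The neighbourhood of PTPRC on chromosome 1 was read to see whether nearby genes differed with it. The nearest tested genes were NEK7, at 128 ± 22.5 CPM in control and 113 ± 5.71 CPM in knockout, and ZNF281, at 46.4 ± 2.85 and 52.0 ± 0.938 CPM (SD, n = 3). Their log2 fold changes were -0.18 (standard error 0.11) and 0.16 (standard error 0.081). Of the 10 nearest tested genes on each side, 7 were lower and 13 higher, with a median of 0.08 and 2 called, IGFN1 at -0.43 and PHLDA3 at 0.48. The corresponding medians around the other genes ran from -0.11 at PTPRS to 0.04 at PTPRE. PTPRC shares no exonic base with another annotated gene, while exons of genes on the opposite strand cover 9.18% of the exonic bases of PTPRG (PTPRG-AS1), 1.94% of those of PTPRK (PTPRK-AS1) and 1.02% of those of PTPRM (ENSG00000263970). If strand was not used in the counting, counts from these partners cannot be told apart from those of the 3 genes.

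**Figure D5:**
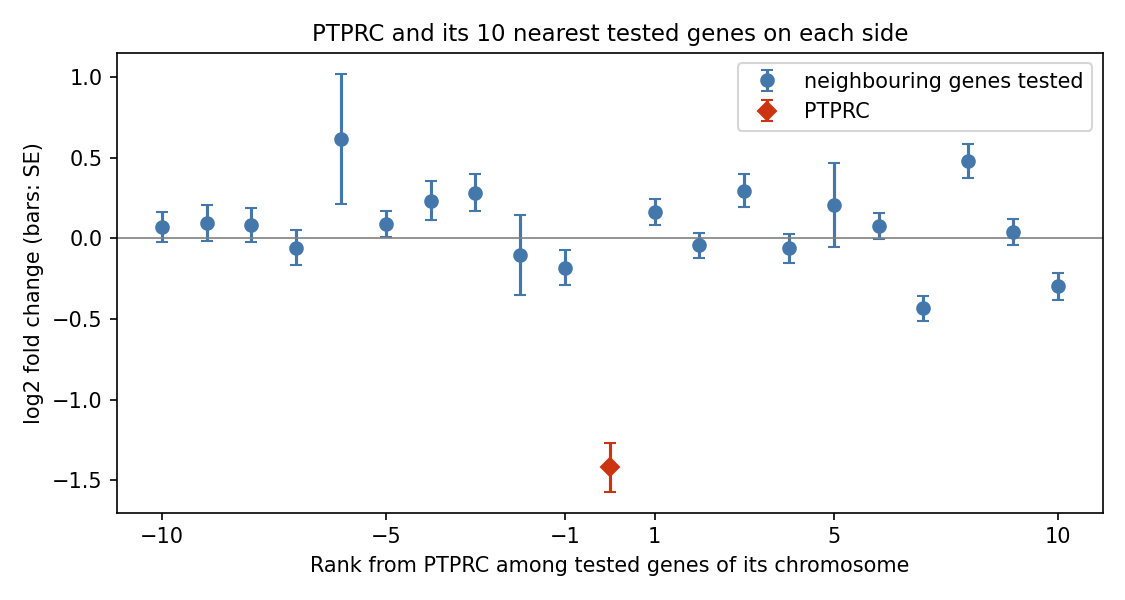
Log2 fold change (y axis; libraries labelled BMAL1 knockout over control, bars give the standard error) of PTPRC (red) and of the 10 nearest tested genes on each side (blue), ordered along the chromosome (x axis, rank from PTPRC). The median of the neighbours is 0.08, and PTPRC, which was selected on its lower level, is at -1.42.

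The genes whose log2 CPM followed that of PTPRC most closely over the 6 libraries, among 12358 named genes averaging 1 CPM or more, were CYGB (Pearson r = 0.998), PYGL (0.998), S100A16 (0.997), FKBP1A (0.995) and WNT5B (0.993). CYGB, a globin, measured 19.4, 19.3 and 19.1 CPM in control and 12.4, 10.7 and 12.5 CPM in knockout. Like PTPRC, it was lowest in knockout replicate 2. WNT5B, a secreted WNT ligand, measured 41.8, 41.7 and 45.8 CPM in control and 23.3, 21.5 and 25.9 CPM in knockout. The most opposite were NRIP3 (r = -0.997), ZNF304 (-0.995) and SMDT1 (-0.994). These coefficients come from the same 6 libraries and mostly follow the difference between the groups that chose PTPRC, so they describe likeness alone.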

How the data were processed

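After removal of adapter-bearing and poor reads, the authors mapped to hg38 and deposited, for each gene, counts of unique reads; the submitters' processing notes name fastp 0.20.1 and HISAT2 2.0.4. Annotation and strandedness are not given in the sources used here. GENCODE v44 matched 20018 of 22354 loci.

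From the counts, edgeR 4.0.16 (R 4.3.3) was used for TMM normalization, for fold changes and for 2-sided quasi-likelihood p-values with robust estimation and the default low-count filter, with Benjamini-Hochberg adjustment over 14860 loci, with 0.05 as the threshold. This fit was settled after results had been seen: a first fit that estimated dispersions beforehand called 373 loci, 12 combinations of options, calling 295 to 373, were then compared, and the one kept was picked because its 352 calls matched an earlier analysis of the same counts. The members and lists were chosen with earlier results of these data known. Named are the 9 genes, BMAL1, and of 16 lists the called genes, the most abundant and defining markers at 0, the neighbours of PTPRC and the genes most like it; further list genes, such as LCK, MDK, LAPTM5 and CD8A, were named after their values were seen. The fits were tested on simulated data. Alternatives were RLE, library size only, other filters, DESeq2 1.42.0, limma-voom 3.58.1, a replicate block, thinning and leaving out each library; GC trend removal and dispersions estimated first were added after the data had been seen. Nothing states that the replicates were separate cultures, so p-values measure the spread between these libraries, and limits from counts of 0 cover counting error only.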

Additional observations from a re-analysis of the deposited data

How the results depend on the processing

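The log2 fold change of each of the 9 genes kept its sign in all 16 alternatives, and 143 of the 144 values moved by less than the spread between replicates. The exception was PTPRC at -1.58 once each library was thinned to the lowest total. Loci called higher and lower, 150 and 202, were 310 and 387 with DESeq2, 489 and 601 with the GC trend removed, and 39 to 323 and 65 to 360 when a library was left out. With library size only, 175 were higher and 155 lower. With dispersions estimated first, as in the first fit, they were 161 and 212. With the replicate block they were 97 and 119; same-numbered libraries deviated with correlations of -0.09, -0.05 and -0.005, so the numbers do not pair them. The phosphatase, kinase and partner genes called, 3, were 6 with DESeq2, 1 with limma-voom, 8 with the GC trend removed and 0 to 4 when a library was left out. The marker genes called, 2, were 0 to 3 when a library was left out. With fewer libraries the tests have less to estimate the spread from. Without knockout replicate 1, however, more loci were called, 323 higher and 360 lower. The cause of these changes was not tested. Of 365 values of BMAL1 and named list genes, 23 genes in all, 28 lost and 8 gained a call, and none of the 365 changed sign where called; values under the alternatives were not tabulated for the further named genes, such as IGFN1, CYGB and LAPTM5.

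By the longest transcript, control levels were 36.4 (PTPRF), 23.5 (PTPRA), 16.9 (PTPRM), 16.4 (PTPRK), 9.06 (PTPRS), 7.59 (PTPRJ), 6.90 (PTPRG), 3.99 (PTPRE) and 0.888 (PTPRC) CPM per kilobase, since the length is shorter; this exchanged PTPRM with PTPRK and PTPRS with PTPRJ. With library size only, PTPRE was at 2.02. With 5 neighbours on each side, medians were -0.0701 for PTPRA, 0.00647 for PTPRJ and -0.13 for PTPRK. They were 0.126 for PTPRC, 0.0932 for PTPRG, -0.0114 for PTPRM and -0.111 for PTPRF. With 60 to 183 counts of PTPRC per library, counting limits its precision.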
